A study of Equus caballus with 26 samples.

Results

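Toll-like receptors are membrane proteins with which white blood cells sense parts of microbes. TLR4 senses lipopolysaccharide (LPS), the outer membrane component of Gram-negative bacteria, and does so together with CD14, which hands LPS over, and LY96 (also called MD-2), which binds it inside the receptor complex. TLR1, TLR2, TLR5 and TLR6 sit on the cell surface and sense bacterial lipoproteins or flagellin, whereas TLR3, TLR7 and TLR8 sit in endosomes and sense RNA. In blood, neutrophils and monocytes are known to carry TLR4, CD14, TLR2 and TLR8, though not at equal levels, whereas TLR7 is known from plasmacytoid dendritic cells and B cells.

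The members were these 10 genes, taken by name. 9 of the 10 had a probe among the 24415 gene names of the array. TLR5 was found under no gene name, description or accession and was not measured here.

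RNA from whole horse blood was hybridized to a custom equine Agilent array in a single colour (Cy3). The labels and the study describe Arabian or half-breed Arabian horses on 160 km endurance rides, sampled at rest before the ride (T0) or immediately after it (T1); ages of the single horses were not used here. The experimental set, which the labels call training, held 3 geldings (horses 2, 32 and 41), each sampled at both times. The validation set held 20 different horses, 7 sampled only at T0 (3 females, 4 geldings) and 13 sampled only at T1 (3 females, 10 geldings). According to the study's methods, horses of the validation set sampled at T1 completed the ride, while most of the horses sampled at T0 later failed a veterinary check, so time and completion cannot be told apart there. The labels name no drug and no genetic change in any group.

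Each level below is the log2 of the processed signal of a spot minus the 75th percentile of the same array, so 0 is the 75th percentile and 1 unit is a doubling. Between 60.2% and 75.3% of the probes of an array were well above background. A probe's brightness also depends on its sequence, so levels are compared only for the same gene between samples. One T0 array of the validation set, that of horse 47, stood apart: the mean level of its 9 measured neutrophil genes was 4.95, against 2.78 to 3.17 on the other 6 T0 arrays and 4.42 to 5.66 at T1. The T1 array of horse 34 was read in 1 scanner pass and was the only array with saturated spots.

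The probes for the LPS receptor and for the endosomal receptors that moved most are shown because each gene's result rests on so few bases. 30 bases of each 60-base probe are printed, 5′ to 3′, each named by where it starts in the gene's transcript sequence as the array file gives it; capitals mark bases shared with another probe of the same gene, and lower case marks the rest.
TLR4, probe at 3132: cctccctcctctttaaggcagtttccttat
TLR4, probe at 3192: gGAAATCTGATTGATACATATTCACAAACA
CD14, probe at 1557: aggggagaagaatgaattgactcagattgc
LY96, probe at 429, bases 31 to 60: aTACTGAAGAAGCGCTCTTTTGTTTGAATT
LY96, probe at 460: TACTGAAGAAGCGCTCTTTTGTTTGAATTt
TLR8, probe at 3226: ggcttgttttggcaaagtctgaaaaatgtg
TLR3, probe at 2917: caggtgttccattgccaattaacttaattt

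The array file places these probes on the horse build EquCab1. The TLR4 probes lie end to end at chrUn:203175350-203175409 and chrUn:203175410-203175469 on the plus strand. CD14 lies at chr14:35520884-35520943 on the plus strand. The first LY96 probe lies at chr9:12505657-12505716 on the minus strand and the second at chr9:12505626-12505685. TLR8 lies at chrX:2806915-2806974 on the plus strand and TLR3 at chr27:23494185-23494244 on the minus strand. Exon and untranslated region were not assigned, since no annotation of that build was used here. A second custom oligonucleotide of 50 bases for TLR4 lay wholly inside the probe at 3192, and the LY96 probes shared 29 bases, so neither pair gives independent readings.

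Comparing T1 with T0 within the experimental set asks how the same horse's blood changed over the ride. 5 of the 9 measured genes rose (TLR4, CD14, TLR1, TLR2 and TLR8) and 1 fell (TLR3) at an adjusted p under 0.05, in a paired limma fit across 17486 genes that called 10.2% of all genes, 6.20% higher and 3.96% lower. Of the 9, 7 rose in the validation set (the same 5 genes with LY96 and TLR6) and TLR3 fell, where an unpaired limma fit of 17403 genes called 44.2%, 20.3% higher and 23.9% lower. TLR7 was called in neither set. TLR3 met the filter of at least 3 arrays (experimental set) or 7 (validation set) well above background only through T0, where it was high. Its calls are therefore descriptions. The median change of all genes was 0.03 in the experimental set and -0.07 in the validation set, against medians of 1.24 and 1.10 over the 9 members.

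**Figure D1:**
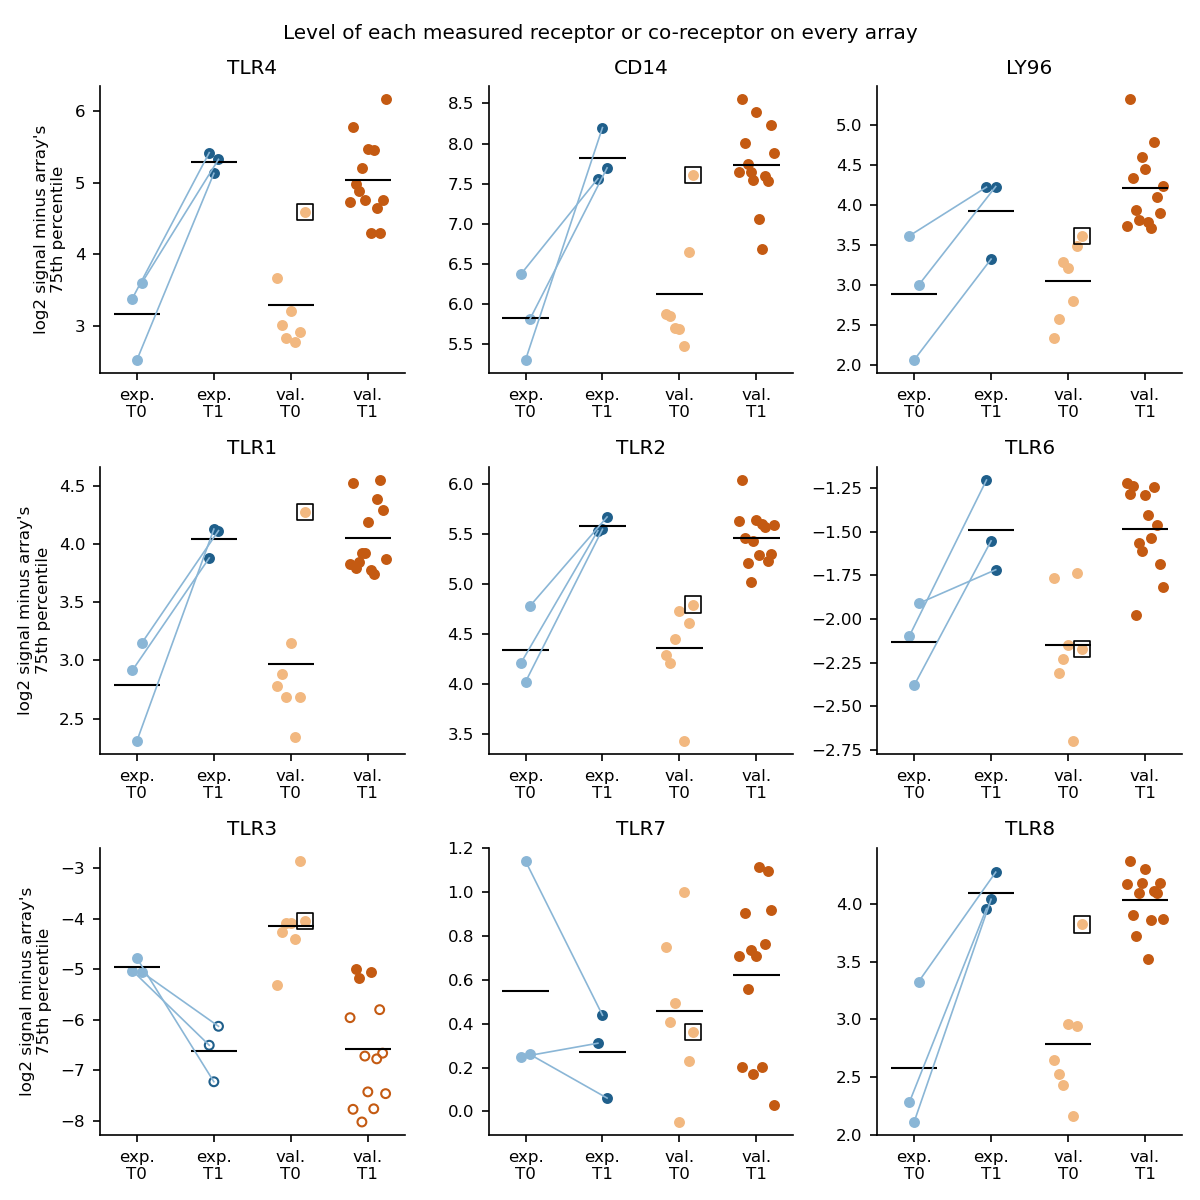
Level of each measured gene on all 26 arrays (log2 level relative to the 75th percentile of the array), by group; lines join the samples of a horse, black bars are group means, open circles are spots not well above background, and the square marks horse 47. TLR4, CD14, TLR1, TLR2 and TLR8 lie higher at T1 in both sets, TLR3 lies lower, and the TLR7 levels overlap.

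TLR4, the signalling receptor for LPS, showed a 4.37-fold rise in the experimental set. Its level at T0 was 3.38 in horse 2, 2.52 in horse 32 and 3.60 in horse 41, and at T1 it was 5.42, 5.13 and 5.33 in the same order. Every T1 sample was above every T0 sample. The log2 change was 2.13 (SE 0.33, adjusted p = 0.00856, limma, 3 pairs). Validation T0 levels ran from 2.78 (horse 29) through a median of 3.01 to 4.59 (horse 47), and the T1 levels from 4.29 (horse 24) through a median of 4.88 to 6.17 (horse 62). The groups overlapped only through horse 47, since the next T0 level was 3.68. The log2 change there was 1.75 (SE 0.26, adjusted p = 3.76e-05, limma, 7 against 13 horses).

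TLR4's other probes gave larger changes than the brightest probe. The probe at 3192 changed by 2.55 in the experimental set and 2.02 in the validation set, and the oligonucleotide inside it by 2.57 and 2.02, so the sizes for the brightest probe, 2.13 and 1.75, are the lowest of the 3.

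CD14, the LPS-binding co-receptor of myeloid cells, changed nearly as much. Its levels were 6.37, 5.31 and 5.82 in horses 2, 32 and 41 at T0, and 7.56, 8.20 and 7.70 at T1. The groups did not overlap, and horse 32 had both the lowest T0 and the highest T1 level. The log2 change was 1.99 (SE 0.39, adjusted p = 0.0196, limma), a 3.97-fold rise. Among validation horses CD14 ran from 5.48 (median 5.86) to 7.60 at T0 and from 6.69 (median 7.65) to 8.55 at T1. Horse 47 at T0 lay inside the T1 range, as no other T0 horse did. Horse 34, whose array was read in 1 scanner pass and had saturated spots, was the lowest at T1. Its log2 processed signal for CD14 was 15.89, against 16.59 to 17.46 on the other validation T1 arrays. Whether that reading was limited by the scan was not tested. The change came to 1.61 on the log2 scale (SE 0.27, adjusted p = 8.89e-05, limma). The custom CD14 oligonucleotide gave 2.00 and 1.62.

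LY96, the small secreted protein that carries LPS in the TLR4 complex, showed the smallest change of the 3 LPS receptor genes. Horses 2, 32 and 41 were at 3.61, 2.07 and 3.0 at T0 and at 4.22, 3.32 and 4.23 at T1. It was higher at T1 in 3 of 3 horses, yet horse 2 at T0 was above horse 32 at T1, and the log2 change of 1.03 (SE 0.32) did not pass the threshold (adjusted p = 0.0752, limma). Over the validation horses LY96 ran from 2.34 (median 3.22) to 3.61 at T0 and from 3.72 (median 4.09) to 5.32 at T1. Here the groups did not overlap, horse 47 included. That was a log2 change of 1.16 (SE 0.22, adjusted p = 0.000285, limma).

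TLR2, the partner receptor of TLR1 and TLR6 for bacterial lipoproteins, was at 4.21, 4.02 and 4.78 at T0 and at 5.53, 5.55 and 5.67 at T1 in horses 2, 32 and 41. The T1 levels were close together, and none reached down to the T0 levels. The log2 change was 1.24 (SE 0.32, adjusted p = 0.0442, limma). TLR2 in the validation set ran from 3.43 (median 4.45) to 4.80 at T0 and from 5.02 (median 5.46) to 6.04 at T1. The groups did not overlap, so in horse 47, whose TLR4, CD14 and TLR1 lay in the T1 range, TLR2 did not. This made a log2 change of 1.10 (SE 0.17, adjusted p = 3.53e-05, limma).

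TLR1, which pairs with TLR2 for triacylated lipoproteins, was at 2.91, 2.31 and 3.15 at T0 and at 3.88, 4.13 and 4.11 at T1 in the same horses. The groups did not overlap, and the log2 change of 1.25 (SE 0.34) passed the threshold narrowly (adjusted p = 0.0496, limma). Validation levels ran from 2.34 (median 2.78) to 4.28 at T0 and from 3.74 (median 3.92) to 4.55 at T1. Horse 47 held that highest T0 level, and the next T0 level was 3.15. This gave a log2 change of 1.08 (SE 0.20, adjusted p = 0.000251, limma).

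The 6 TLR1 probes fell into those near the 3′ end of the transcript sequence and those near its 5′ end. The probes at 2445 and 2381 changed by 1.25 and 1.29 in the experimental set and by 1.08 and 1.09 in the validation set. The probes at 504, 534, 563 and 583 form a chain in which each overlaps the next. They changed by 0.40 to 0.44 in the experimental set and by 0.58 to 0.63 in the validation set. All 6 changes were positive, and the size given for TLR1 is that of the brightest probe, at 2445. TLR1 and TLR6 are close paralogues, and cross-hybridization between them was not tested.

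TLR6, which pairs with TLR2 for diacylated lipoproteins, moved least among the surface receptors. The experimental horses were at -2.10, -2.38 and -1.91 at T0 and at -1.20, -1.55 and -1.72 at T1. The groups did not overlap, but the log2 change of 0.64 (SE 0.33) did not pass the threshold (adjusted p = 0.224, limma). The validation set ran from -2.70 (median -2.17) to -1.73 at T0 and from -1.98 (median -1.46) to -1.22 at T1. Those ranges overlapped, and the log2 change was 0.67 (SE 0.14, adjusted p = 0.000755, limma).

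Among the endosomal receptors, TLR8, a sensor of single-stranded RNA, rose. It was at 2.28, 2.11 and 3.33 at T0 and at 3.96, 4.04 and 4.28 at T1 in horses 2, 32 and 41. The groups did not overlap, and the log2 change was 1.52 (SE 0.34, adjusted p = 0.0293, limma), a 2.87-fold rise. For validation horses TLR8 ran from 2.16 (median 2.65) to 3.82 at T0, again with horse 47 highest, and from 3.53 (median 4.10) to 4.38 at T1. Its log2 change was 1.25 (SE 0.18, adjusted p = 1.87e-05, limma).

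TLR7, the neighbouring receptor on the X chromosome with a like ligand, was called in neither set. It was at 0.25, 1.14 and 0.26 at T0 and at 0.31, 0.44 and 0.06 at T1 in the experimental horses. It was higher at T1 in 1 of 3 horses, and the log2 change was -0.28 (SE 0.33, 95% interval -1.02 to 0.46, adjusted p = 0.599, limma). The validation levels ran from -0.05 (median 0.41) to 1.0 at T0 and from 0.03 (median 0.71) to 1.12 at T1. The log2 change was 0.17 (SE 0.17, 95% interval -0.19 to 0.53, adjusted p = 0.452, limma), so a rise of the size seen in TLR8 lay outside both intervals.

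TLR3, the sensor of double-stranded RNA, was the only member that fell. The experimental horses were at -5.02, -4.78 and -5.05 at T0, and the T1 readings of -6.50, -7.23 and -6.13 were not well above background in any of the 3 horses. Set against the lowest signal that was well above background on those arrays, TLR3 was at least 2.59-fold lower at T1 (limma adjusted p = 0.0276 on the measured values, group means -4.95 and -6.62). Validation levels of TLR3 ran from -5.31 (median -4.08) to -2.86 at T0, where it was above background in 7 of 7 horses, and from -8.02 (median -6.72) to -4.99 at T1, where it was above background in 3 of 13. The 3 horses measured above background at T1, horses 7, 8 and 24, were also the highest there and overlapped the lowest T0 horse. With the 10 dim readings set to the lowest signal that was well above background on their array, TLR3 was at least 3.11-fold lower at T1 on this scale. On the measured values the log2 change was -2.43 (SE 0.43, adjusted p = 0.000145, limma, group means -4.15 and -6.58), and it was -0.47 (adjusted p = 0.000267) with a background-corrected scale (normexp) and -0.48 (adjusted p = 0.000328) with the authors' deposited log2 values, so its size depends on how dim signals are treated. The experimental call was lost with normexp (log2 change -0.27, adjusted p = 0.259), with the deposited values (-0.27, adjusted p = 0.279) and with all 26 arrays in a single fit (adjusted p = 0.123). The changes with normexp and with the deposited values were smaller than the 2.59-fold and 3.11-fold bounds, so those bounds hold only on the scale used here.

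**Figure D2:**
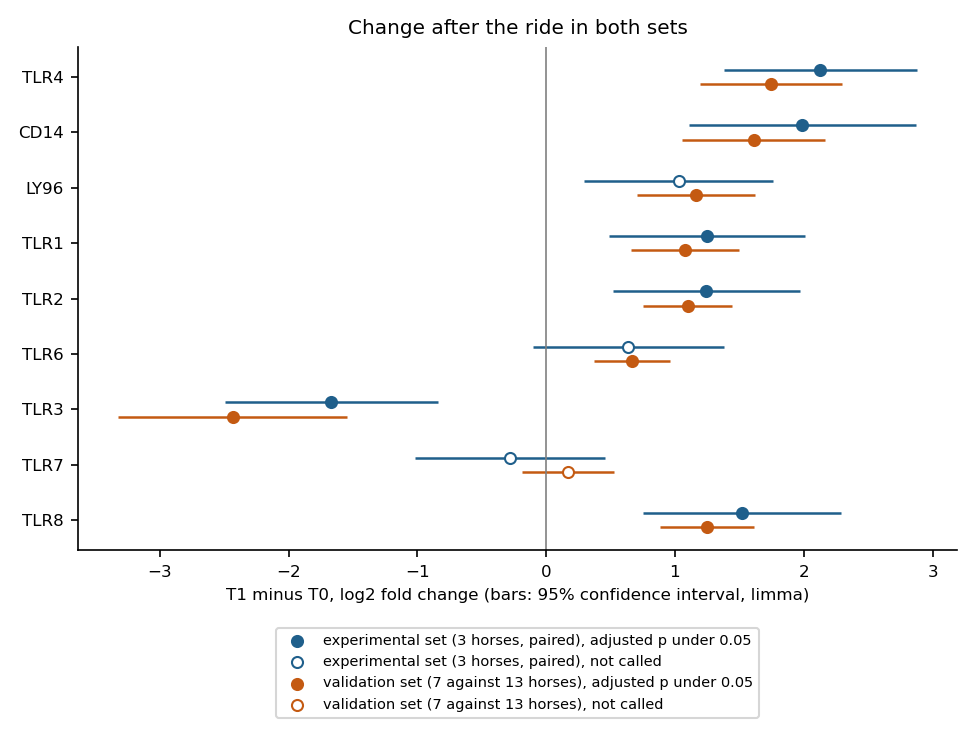
Log2 fold change, T1 minus T0, of the 9 measured genes in the experimental set (blue) and the validation set (orange), with 95% confidence intervals from limma; filled points have an adjusted p under 0.05. TLR4 and CD14 have the largest positive estimates in both sets, TLR3, drawn from measured values that were mostly at background at T1, is negative and the TLR7 intervals span 0.

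Counted by overlap alone, 6 genes in the experimental set had every T1 sample above every T0 sample and TLR3 every T1 sample below, where 17.8% and 17.7% of all tested genes did so. LY96 and TLR2 had this property in the validation set, against 1.45% of all genes. Leaving out horse 47 raised the validation estimates of the genes in which it lay near the T1 range, to 1.97 for TLR4, 1.86 for CD14, 1.29 for TLR1 and 1.42 for TLR8, while TLR7 was at 0.15, and the same 8 genes were called. The calls of the experimental set rest on few horses. Without horse 2 only CD14 was called, without horse 32 only TLR4, and without horse 41 the count was 5, with TLR3 no longer tested in each of these fits because fewer than 3 arrays held it above background. With no filter on dim probes, none of the 9 reached an adjusted p under 0.05 in limma (0.0842 for TLR4, the lowest), though 7 had an unadjusted p under 0.05 in that fit. The share of calls that were higher was 61.0% over all genes on this scale, and 47.5% to 49.5% on the other 3 scales tried.

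Slides and scan days lined up in part with time in the validation set. Its arrays of scan days 1 and 2, from horses 24, 62, 4 and 55, were all T1. Only slides 7, 11 and 17 held validation arrays of both times. On each of the 5 scan days that held both time points, with 1 or 2 T0 arrays and 1 to 4 T1 arrays, TLR4, CD14, LY96, TLR1, TLR2, TLR6 and TLR8 were higher at T1 and TLR3 lower. TLR4 differed by 0.86 to 2.69 within a day, and CD14 by 0.82 to 2.92. Scan day as a term left 8 of 9 genes called, with a log2 change of 1.73 for TLR4. Among the experimental arrays, a T0 array of horse 2 and a T1 array of horse 41 shared a slide, and TLR4 differed by 1.95 between them.

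The sets were then compared with each other in a single limma fit of all 26 arrays over 19396 genes. For each member but TLR3 and TLR7 both T0 group means lay below both T1 group means, and for TLR3 both lay above. Groups of the same time did not differ beyond their spread in this fit. The difference in TLR4 between sets was 0.12 (95% interval -0.66 to 0.90) at T0 and -0.26 (-0.98 to 0.46) at T1. The change of TLR4 in the validation set minus that in the experimental set was -0.38 (-1.47 to 0.71), of CD14 -0.38 (-1.48 to 0.73) and of LY96 0.13 (-0.89 to 1.15). None of the 9 genes was called in any of these 3 comparisons, in which limma called 0 of all genes and 157 to 707 genes had an unadjusted p under 0.05; no member had one. The intervals reach past -1 for TLR4 and CD14 and past 1 for LY96, so a difference of that size between the sets, in that direction, lies within them.

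TLR4, CD14 and LY96 were set against the other receptors as a description without a test. The median log2 change of the 3 was 1.99 in the experimental set and 1.61 in the validation set, against 0.94 and 0.87 for the 6 other receptors measured. Leaving out TLR3, which moved the other way, the 5 that remained had medians of 1.24 and 1.08. The difference of medians was then 0.75 (SD over 3 horses 0.45, range 0.23 to 1.09) and 0.53 (SD over 13 T1 horses, each set against the T0 means, 0.33, range -0.10 to 0.97). LY96 lay below TLR8 in both sets, so the 3 LPS genes did not move as a block above the rest.

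Markers of other cells moved over the same samples, and their part in these results was not tested. Whole blood is a mixture, so fewer cells of a type and less RNA per cell cannot be told apart. Of 9 measured neutrophil genes (of 11 listed), limma called 6 higher in the experimental set and 8 in the validation set, and none lower. That is 66.7% and 88.9%, where 6.20% and 20.3% of all genes were called higher. Their mean level ran from 2.79 to 4.13 at T0 and from 4.93 to 5.51 at T1 in the experimental set. The validation arrays ran from 2.78 to 4.95 at T0, where horse 47 was the highest, and from 4.42 to 5.66 at T1. Of the genes of granules made in immature neutrophils, 3 of 4 measured (of 6 listed) were called higher in each set. The remaining gene, MPO, changed by -0.50 in the experimental set and -0.52 in the validation set and was called in neither.

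Monocytes also carry TLR4 and CD14, and their genes are given singly. VCAN, a proteoglycan of classical monocytes, rose by 2.25 on the log2 scale in the experimental set and 1.85 in the validation set (limma adjusted p = 0.0124 and 3.55e-06), and CX3CR1, the fractalkine receptor, fell by 1.82 and 1.53 (adjusted p = 0.0197 and 0.000145). CSF1R, the receptor that defines the lineage, changed by 0.03 and 0.07, CCR2 by 0.04 and 0.30 and CD68 by 0.72 and 0.67, and none of these 3 was called in either set.

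Lymphocyte genes went down over the same arrays. Of 8 T cell genes (of 9 listed), 4 were called lower in the experimental set and 7 in the validation set, and of 6 B cell genes 3 and 6. Of 5 NK cell genes (of 6 listed), 3 and 4 were called lower, and 1 was called higher in the validation set. Over all genes, 3.96% were called lower in the experimental set and 23.9% in the validation set, where 20.3% were called higher. The mean of the T cell list ran from 0.47 to 1.58 at T0 and from -0.60 to 0.65 at T1 in the validation set, and from 1.03 to 1.61 and from 0.26 to 0.54 in the experimental set. The mean of the B cell list ran from -1.03 to 0.52 and from -3.08 to -0.62 in the validation set, and from -0.72 to 0.09 and from -1.71 to -1.37 in the experimental set. The mean of the NK cell list ran from -0.95 to 0.38 and from -1.18 to -0.37, and from -0.57 to 0.59 and from -1.46 to -0.41. None of the 4 listed genes of plasmacytoid dendritic cells, which carry TLR7, had a probe.

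**Figure D3:**
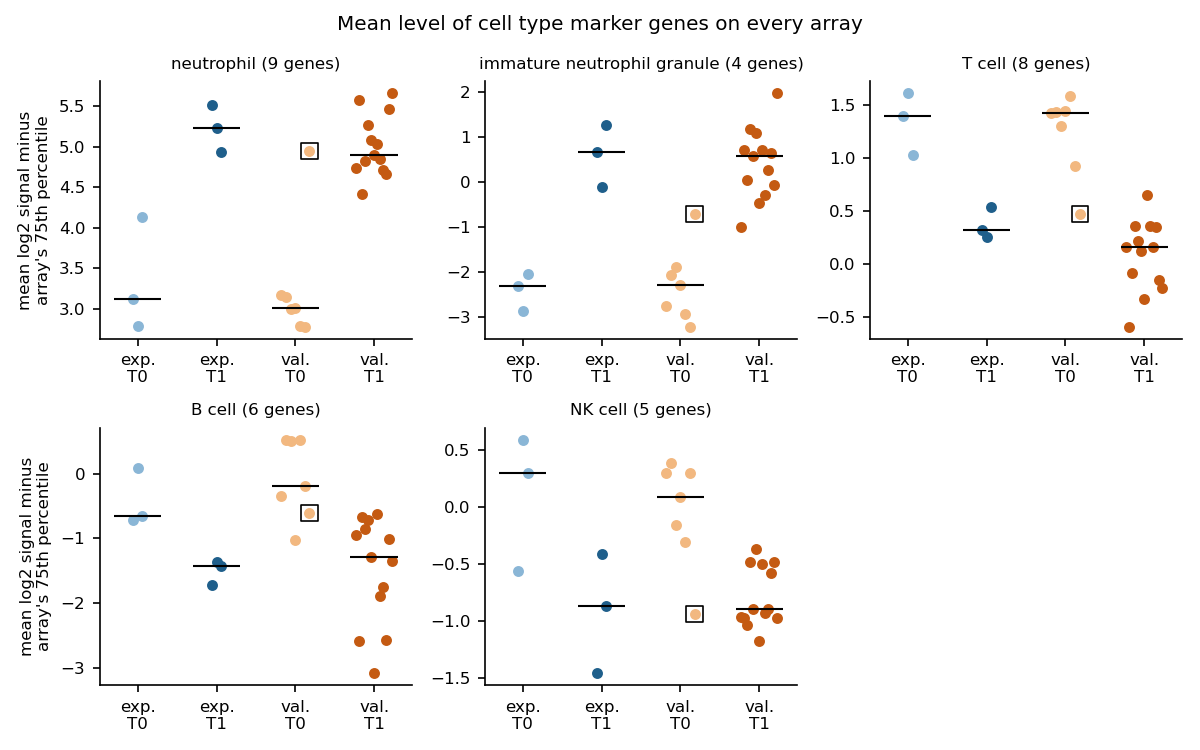
Mean level of marker genes of 5 cell types or stages on all 26 arrays (log2 level relative to the 75th percentile of the array), by group; black bars are medians and the square marks horse 47. Neutrophil means lie between 4.42 and 5.66 at T1 and horse 47 lies among them at T0, while the medians of the T cell, B cell and NK cell means are lower at T1.

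The genes around the receptors were counted from lists of other Toll family receptors, transfer proteins, chaperones, adaptors, kinases, transcription factors and inhibitors. Of 46 listed genes 37 had a probe and 35 were tested in each set. Of these, 4 were called higher and 3 lower in the experimental set, which is 11.4% and 8.57% against 6.20% and 3.96% of all genes, and 11 higher and 10 lower in the validation set, which is 31.4% and 28.6% of those tested there against 20.3% and 23.9% of all genes. The median log2 change over the 35 genes was 0.32 in the experimental set and 0.05 in the validation set.

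Among proteins that bind or transfer LPS, BPI, a neutrophil granule protein that neutralizes LPS, changed most. It rose by 3.42 on the log2 scale in the experimental set (SE 0.40, adjusted p = 0.0034, limma) and by 3.74 in the validation set (SE 0.45, adjusted p = 4.37e-06, limma). PGLYRP1, a granule protein that recognizes peptidoglycan, rose by 1.32 in the validation set (adjusted p = 0.0112, limma), and its change of 1.63 in the experimental set was not called (adjusted p = 0.133). CD36, a co-receptor of TLR2 with TLR6, changed by -0.58 and -0.40 and was called in neither. LBP, the plasma protein made in liver that brings LPS to CD14, had a probe too dim to be tested.

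The other Toll family receptors and the chaperones did not share the rise. TLR9, the sensor of unmethylated DNA, changed by -0.26 and -0.14 and was called in neither set. TLR10 fell in the validation set by 0.57 (SE 0.16, adjusted p = 0.00618, limma), and its change of -0.28 in the experimental set was not called. UNC93B1, which carries TLR3, TLR7, TLR8 and TLR9 to endosomes, fell by 0.75 in the validation set (adjusted p = 0.00784), and CNPY3, a folding chaperone of Toll-like receptors, by 0.82 (adjusted p = 0.00317, limma). Their changes of -0.59 and -0.71 in the experimental set were not called.

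The adaptors split. TICAM1 (TRIF), the adaptor of TLR3 and of TLR4 in endosomes, fell in both sets, by 1.21 (SE 0.32, adjusted p = 0.0477) and 1.18 (SE 0.22, adjusted p = 0.000236, limma). MYD88, the adaptor of the Toll-like receptors measured here other than TLR3, rose by 0.74 in the validation set (SE 0.27, adjusted p = 0.0297, limma), and its change of 1.01 in the experimental set was not called (adjusted p = 0.165). TIRAP, which bridges MYD88 to TLR2 and TLR4, changed by 0.98 and 0.66 and was called in neither (adjusted p = 0.118 and 0.0692). TICAM2, which bridges TICAM1 to TLR4, changed by -0.24 and -0.17, and SARM1 was too dim to be tested.

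Of 12 kinases and ubiquitin ligases tested, 1 rose in the experimental set (8.33%, against 6.20% of all genes called higher). In the validation set 4 rose and 2 fell (33.3% and 16.7%, against 20.3% and 23.9% of all genes). IRAK2, a kinase of the MYD88 complex, rose by 2.19 (SE 0.36, adjusted p = 0.0119) and by 1.51 (SE 0.28, adjusted p = 0.000209, limma). IRAK4, the kinase that starts that complex, rose by 1.10 in the validation set (adjusted p = 0.000195) and changed by 0.72 in the experimental set, which was not called. PELI1 rose by 0.49 (adjusted p = 0.00438) and TRAF3, a ligase of the TRIF arm, fell by 0.57 in the validation set (adjusted p = 0.00236, limma). In the experimental set their changes of 0.63 and -0.26 were not called.

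Among 6 transcription factors, IRF7, which drives interferon genes after TLR7 and TLR9, fell in both sets, by 1.84 (SE 0.34, adjusted p = 0.017) and 2.24 (SE 0.33, adjusted p = 2.85e-05, limma). In the validation set REL rose by 0.68 (adjusted p = 0.000325) and RELA by 0.51 (adjusted p = 0.0209, limma), both subunits of NF-kappaB. RELB, a subunit of its alternative form, fell by 0.50 in the validation set (adjusted p = 0.0248, limma). In the experimental set their changes of 0.70, 1.06 and -0.47 were not called.

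Of 6 inhibitors, the same 2 were called higher in both sets (33.3%, against 6.20% and 20.3% of all genes). The share called lower was 16.7% and 33.3%, against 3.96% and 23.9% of all genes. NFKBIA, which holds NF-kappaB in the cytoplasm and is itself one of its targets, rose by 2.39 (SE 0.37, adjusted p = 0.00856) and 1.70 (SE 0.27, adjusted p = 5.98e-05, limma). IRAK3, a kinase-like brake found in myeloid cells, rose by 1.75 (SE 0.40, adjusted p = 0.0324) and 1.66 (SE 0.24, adjusted p = 1.94e-05, limma). CD180, a TLR4 relative best known on B cells, fell by 1.84 (SE 0.38, adjusted p = 0.0227) and 1.61 (SE 0.29, adjusted p = 0.00019, limma). Its partner LY86, the counterpart of LY96, fell by 1.11 in the validation set (adjusted p = 0.0326, limma), and its change of -1.05 in the experimental set was not called. B cell genes were lower over the same arrays, and their part in the falls of CD180 and LY86 was not tested.

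**Figure D4:**
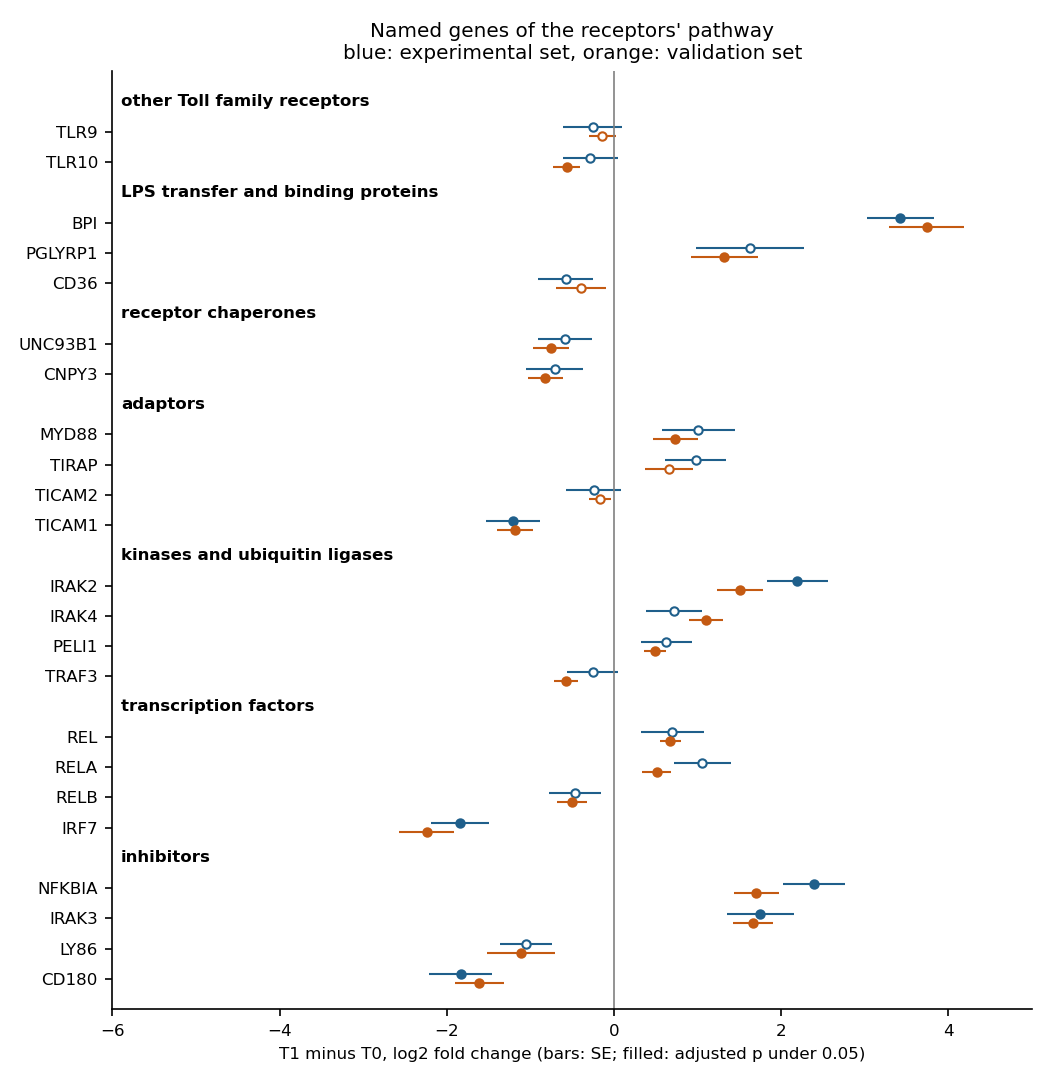
Log2 fold change, T1 minus T0, of named pathway genes grouped by role, in the experimental set (blue) and the validation set (orange); bars are SE and filled points have an adjusted p under 0.05. BPI, NFKBIA, IRAK3 and IRAK2 lie to the right in both sets, and IRF7, CD180 and TICAM1 to the left.

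Across the 13 validation horses sampled after the ride, TLR4 was set against each of the 8 other measured members. Horses with higher TLR4 had lower TLR7 (Pearson r = -0.76, permutation p = 0.00247, adjusted p = 0.0198 over the 8 relations; Spearman rho = -0.70, permutation p = 0.00985, adjusted p = 0.0788) and lower TLR3 (r = -0.69, permutation p = 0.00928, adjusted p = 0.0371; rho = -0.65, permutation p = 0.0203, adjusted p = 0.0812). By rank neither passed the adjustment. Without horses 62 and 4, the farthest from the TLR4 median, r was -0.57 for TLR7 and -0.66 for TLR3. Most TLR3 readings at T1 were at background, so their order there is weakly measured. Horses 62, 4 and 21 had the highest TLR4, and their arrays had the lowest shares of probes well above background (60.6%, 61.8% and 60.2%). TLR7 was at 0.03, 0.21 and 0.71 in them, the last being the group's median. Horses 62 and 4 were scanned on the same day. The part of array signal in these relations was not tested.

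The relations of TLR4 with its co-receptors did not pass the adjustment in these horses. The relation with CD14 had r = 0.36 (permutation p = 0.230, adjusted p = 0.460) and rho = 0.54 (permutation p = 0.0625, adjusted p = 0.167), and without horses 62 and 4 r was 0.14. The relation with LY96 had r = 0.32 (permutation p = 0.293, adjusted p = 0.469) and rho = 0.25 (permutation p = 0.415, adjusted p = 0.563), and r was -0.03 without them. Without horse 34, the array read in 1 pass, r was 0.65 for CD14 (permutation test, adjusted p = 0.0589) and -0.67 for TLR3 (adjusted p = 0.0589). That left TLR7 as the only relation called. With quantile normalization r for CD14 was 0.083 over all 13 horses, horse 34 included. It was 0.57 without horses 62 and 34, the farthest from the TLR4 median on that scale. TLR2 gave r = 0.54 (permutation p = 0.0599, adjusted p = 0.160) and rho = 0.47 (permutation p = 0.105, adjusted p = 0.209), and r was 0.29 without horses 62 and 4. The r values for TLR1, TLR6 and TLR8 lay between -0.17 and 0.22, with adjusted p between 0.624 and 0.798, and their rho between -0.21 and 0.21. Each scan day held at most 4 of these horses, too few for values within a day.

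**Figure D5:**
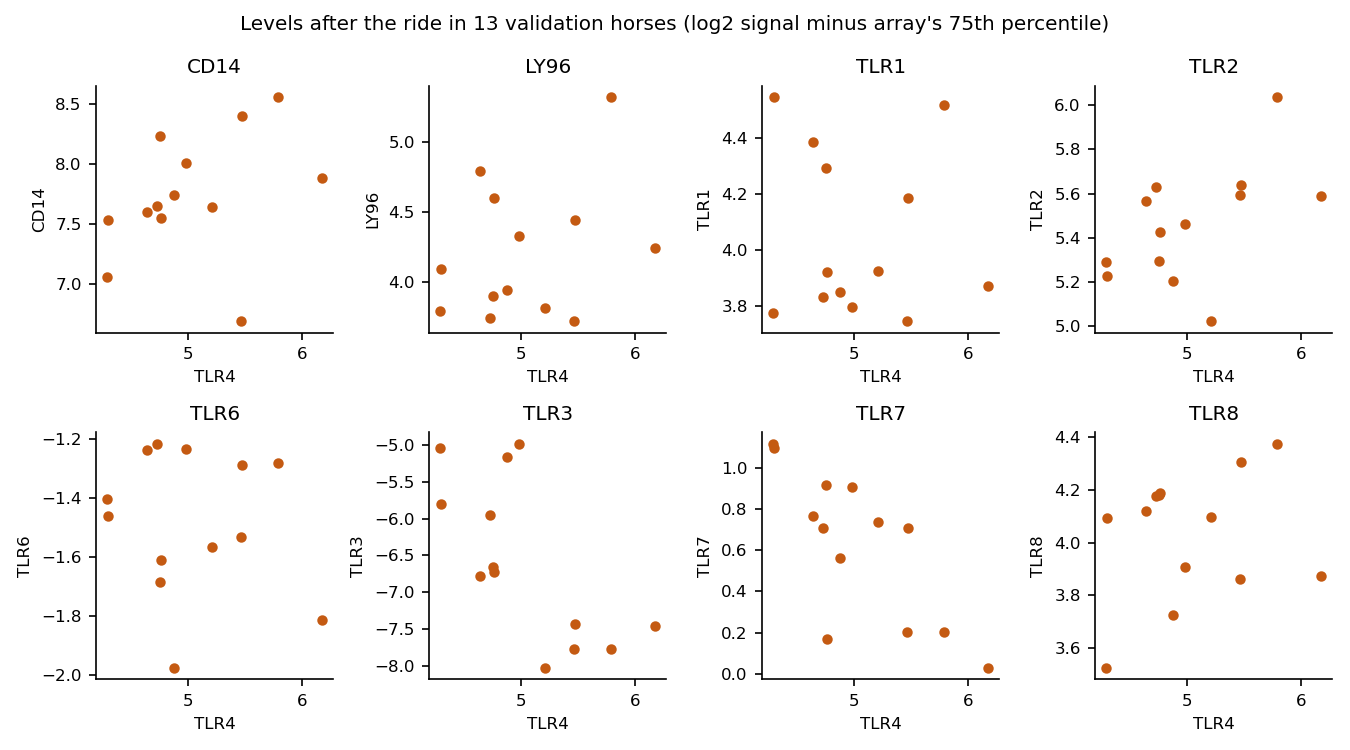
TLR4 level (horizontal axes) against each of the 8 other members (vertical axes) in the 13 validation horses after the ride, in log2 level relative to the 75th percentile of the array. TLR7 and TLR3 decline toward the right (r = -0.76 and -0.69), and the lowest point for CD14 is horse 34, whose array had saturated spots.

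Over all 26 arrays, the 5 named genes with a pattern most like TLR4, among 11898 genes with a symbol, were P2RY13 (r = 0.96), VMP1 (0.95), CXCL1 (0.95), SAMSN1 (0.95) and TSG-6 (0.95). These correlations are descriptions and share the difference between T0 and T1. With each group's mean removed they were 0.86, 0.83, 0.80, 0.80 and 0.87. Since all arrays entered the choice, their changes between T0 and T1 are descriptions too: CXCL1, a neutrophil-attracting chemokine, differed by 4.21 and 3.82 and P2RY13, a receptor for ADP, by 2.05 and 1.63 on the log2 scale. Among the members the closest to TLR4 by the same measure were TLR8 (0.89, rank 164), TLR2 (0.89, rank 184) and CD14 (0.87, rank 244), and LY96 stood at rank 781 (0.76).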

How the data were processed

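The deposited files were one Agilent scanner table per array, and the authors' Feature Extraction had background-subtracted and detrended the processed intensity. The series' table holds the authors' log2 values, normalized between arrays; limma is named in the submitters' processing notes, and no formula or build beyond EquCab1 in the file headers was given in the sources used here. Here the log2 processed intensity minus each array's 75th percentile was used, outlier-flagged spots were left out, spots of a probe were averaged and the brightest probe stood for a gene name. Genes were tested with limma 3.58.1 in R 4.3.3 (Benjamini-Hochberg) if well above background on at least 3 arrays (experimental set, horse as a block, since each horse gave both samples; all 26 arrays, horse as a random block) or 7 (validation set). The number of arrays limits the precision. Correlation p-values came from 100000 permutations, two-sided. The members, lists and tests were chosen with earlier results of these data known. Named genes were all members, up to 4 genes per list with the smallest adjusted p in the validation set, every tested gene among adaptors and LPS-binding proteins, and the 5 most like TLR4. As a check of the pairing, the departures from the group means of both samples of a horse correlated at -0.01, 0.21 and 0.19. The correlation between samples of a horse that limma estimated over all 26 arrays was -0.07. These values are too low to show the pairing, which rests on the labels. A gene of the monocyte list is not reported here, so no count or mean of that list is given. The bound for TLR3 in the validation set was added after seeing the data. Scripts were tested on simulated data.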

Additional observations from a re-analysis of the deposited data

Results flagged for a closer look

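In the 7 validation horses at T0, 9 members and 8 marker lists were examined for a horse far from the rest, measured as its gap to the nearest horse over the group's range. Chance alone marks about 1 in 20 such groups. TLR1 in horse 47 was at 4.28, against 3.15 in the next horse (gap ratio 0.585). TLR2 in horse 29 was at 3.43, against 4.21 in the next horse (gap ratio 0.573). The mean of the neutrophil genes in horse 47 was 4.95, against 3.17 in the next horse (gap ratio 0.822). The same horse had the highest T0 level of TLR4, CD14, LY96, TLR2 and TLR8, with gap ratios for TLR4, CD14 and TLR8 of 0.504, 0.450 and 0.519. Without horse 47 the validation count stayed at 8 of 9 members.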

How the results depend on the processing

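In the validation set the 8 called members kept direction and call under every alternative in which they were tested, but the log2 change of TLR3 ran from -2.63 to -0.47, the smallest sizes being those with normexp and the deposited table (-0.48); TLR3 was not tested when every array had to be above background, which left 7. Leaving out any single validation horse left the count at 8. In the experimental set 6 members were called, 0 with no filter on dim probes, 1 to 5 without any single horse, and 6 without the pairing (no replicate block), which changed no call. Over all genes that set's 1777 calls became 46 with no filter, 2842 when every array had to be above background, 2713 in the single fit, and 239, 694 and 3168 without horses 2, 32 and 41. There LY96 was called with normexp and with the deposited table (adjusted p = 0.0316 and 0.0317) and with the strict filter (0.0397), TLR1 was lost with the mean of all its probes (0.70, adjusted p = 0.178), and TLR1 and TLR2 were lost with quantile normalization (1.02 and 0.88). Differences between sets that changed sign were near 0 and never called: TLR2 at T0, -0.12 with quantile normalization, -0.12 with normexp and -0.13 with the deposited table; TLR6 at T0, 0.060, 0.050 and 0.039; TLR1 at T1, -0.0022 with normexp and -0.024 with the table; the difference of the change for TLR6, -0.027 and -0.019, and for TLR1, 0.045 without horse 47 (-0.15, with its sign kept, without horse 34). Of the 2 relations with TLR4, 1 was called without horse 34, and with quantile normalization r became -0.0016 for LY96 and -0.28 for TLR8, and moved to 0.083 for CD14 and -0.47 for TLR1, none of them called. The cause of these shifts was not tested. Signal over background limits TLR3 at T1.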
